A study of Mus musculus with 10 samples.

Results

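The glycolysis and hypoxia response genes are 38 mouse genes chosen by name, as known members of glycolysis, lactate transport and the response to the transcription factor HIF-1. The choice was made with earlier results of these data known, so it is not independent of them. All 38 were found among the 55359 genes of the count table, and all 38 were among the 15777 genes with enough counts to be tested. They were measured by bulk RNA sequencing in pmel-1 T cells. These mouse CD8 T cells carry a transgenic receptor for gp100, a melanoma antigen. The cells came from mouse spleen and in all groups had been activated for 48 h with human gp100 peptide and then kept for 48 h with human IL-2. There were 5 groups with 2 libraries each. The mixture group was electroporated with mRNA for both IL-12 and a decoy-resistant IL-18 (DRIL18), the IL12 group with IL-12 mRNA alone and the DRIL18 group with DRIL18 mRNA alone. Mock is the electroporation control, with what mRNA the labels do not say, and NoEp cells were not electroporated. RNA of the electroporated cells was taken 24 h after the pulse. Age and sex of the mice are not given. The sample titles call the 2 libraries of a group biological replicates, but whether each used its own mouse is not stated. The p-values therefore measure the spread between these libraries, which may not include variation between mice.

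Glycolysis turns glucose into pyruvate in the cytosol. Glucose enters through transporters of the Slc2a family, is trapped by hexokinase, committed by phosphofructokinase, and, when pyruvate is reduced by lactate dehydrogenase, leaves the cell as lactate through monocarboxylate transporters. Activated T cells are known for a high rate of this route even with oxygen at hand. HIF-1α, encoded by Hif1a, is marked for degradation by oxygen-dependent prolyl hydroxylases of the Egln family and, when it escapes them, raises many glycolytic genes together with Vegfa, Bnip3 and the collagen prolyl hydroxylases P4ha1 and P4ha2. HIF-1α is controlled largely at the protein level, which RNA counts do not show.

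Libraries held 31281944 to 35062545 counts, with 20326 to 21358 genes detected. CD8 T cell markers (Cd3d, Cd3e, Cd3g, Cd8a, Cd8b1, Trac, Thy1) were present in all libraries, with a summed level of 2909 to 2919 CPM (counts relative to the TMM-scaled library size) in the mixture, 3487 to 3589.7 in IL12, 3948 to 3987 in DRIL18, 4262 to 4321 in Mock and 4362 to 4540.2 in NoEp. All 7 of these markers were lower in the mixture than in Mock. The 7 B cell markers summed to 539.5 to 556 CPM in the mixture, 436 to 469.6 in IL12, 897 to 946 in DRIL18 and 677 to 678 in Mock, nearly all of it Ighm. Taken singly, 3 of these 7 were higher and 2 lower in the mixture than in Mock (median log2 fold change 0.71). In that comparison 32% of all tested genes were higher and 31.9% lower. Dendritic cell markers summed to 10.3 to 10.6 CPM in the mixture, 21.8 to 23.0 in IL12, 5.24 to 5.74 in DRIL18 and 8.83 to 9.31 in Mock, with Siglech at 0 counts throughout and Xcr1 the highest. The part of these shifts in the results was not tested, and in bulk RNA fewer cells of a type and less RNA per cell cannot be told apart.

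HIF binds DNA at a short core, ACGTG or GCGTG, so the windows before the members' start sites were read for these letters on both strands. RefSeq gives windows of 300 bases, 250 before and 50 after the start, for 36 of the 38 members on GRCm38.p6, with Slc2a3 and Ndrg1 not among them. Either core was found in 42 of the members' 53 windows (79.2%), against 43.8% of all 32851 windows. Counted by gene, 34 of 36 members (94.4%) had a core in at least 1 window, against 46.7% of all genes. That count favours the members, which had 53 windows for 36 genes against 32851 for 27025 over all genes. The members were chosen partly as known HIF response genes, so a high share is not independent of that choice. ACGTG alone was in 54.7% of the members' windows and 19.6% of all, and GCGTG in 58.5% and 32.4%. The E-box CACGTG, which contains ACGTG and is also bound by other factors, was in 13.2% and 7.15%. The members' windows were also richer in G and C, with a median of 63.3% against 52.7% in all windows, and its part in the difference was not tested. A match is a run of letters, not a bound site. The 150 bases directly before the start are shown for 6 members that rose and for Pdk2, the member that fell most. They are also shown for Tpi1, which rose 3.66-fold in the mixture and whose window has no core. The 6 that rose were picked by name without a set rule, so they do not stand for the module. Ldha and Bnip3 are among the members with most cores in a window (7 and 5). Vegfa, which rose more than both, is not shown, and 1 of its windows has no core. Where RefSeq lists several windows for a gene, as for Pdk2 and Ldha, the one with most cores is shown; the other window of Pdk2 has 0 and that of Ldha has 2. Capitals mark either core. They are chr6:82774455-82774604 on the minus strand, chr11:120948917-120949066 on the plus strand, chr11:54100774-54100923 on the plus strand, chr7:138909507-138909656 on the minus strand, chr7:46845654-46845803 on the plus strand, chrX:106186950-106187099 on the plus strand, chr11:95041372-95041521 on the minus strand and chr6:124814159-124814308 on the minus strand, all read 5′ to 3′ along the gene.
Hk2: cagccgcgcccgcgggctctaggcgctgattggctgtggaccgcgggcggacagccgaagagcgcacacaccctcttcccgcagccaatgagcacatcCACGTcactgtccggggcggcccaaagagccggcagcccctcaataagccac
Slc16a3: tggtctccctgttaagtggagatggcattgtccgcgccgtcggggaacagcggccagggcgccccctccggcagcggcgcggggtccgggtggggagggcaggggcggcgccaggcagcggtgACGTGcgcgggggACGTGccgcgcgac
P4ha2: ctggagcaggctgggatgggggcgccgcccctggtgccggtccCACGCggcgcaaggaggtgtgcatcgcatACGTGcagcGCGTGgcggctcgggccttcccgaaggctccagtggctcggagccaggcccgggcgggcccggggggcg
Bnip3: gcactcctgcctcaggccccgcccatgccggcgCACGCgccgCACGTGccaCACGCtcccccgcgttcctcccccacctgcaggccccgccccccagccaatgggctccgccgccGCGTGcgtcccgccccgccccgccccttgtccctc
Ldha: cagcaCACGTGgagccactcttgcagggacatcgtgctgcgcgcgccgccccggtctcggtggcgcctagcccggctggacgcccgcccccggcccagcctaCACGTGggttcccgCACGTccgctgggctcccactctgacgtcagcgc
Pgk1: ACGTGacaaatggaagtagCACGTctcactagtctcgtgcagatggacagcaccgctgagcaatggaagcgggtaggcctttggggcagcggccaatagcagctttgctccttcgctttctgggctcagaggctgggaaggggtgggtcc
Pdk2: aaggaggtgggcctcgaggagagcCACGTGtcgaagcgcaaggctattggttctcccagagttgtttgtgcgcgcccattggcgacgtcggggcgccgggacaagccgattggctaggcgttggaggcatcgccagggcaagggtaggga
Tpi1: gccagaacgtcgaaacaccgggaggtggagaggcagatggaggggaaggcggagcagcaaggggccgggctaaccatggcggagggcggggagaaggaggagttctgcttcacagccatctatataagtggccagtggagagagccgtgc

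Read side by side, the stretches of Bnip3 and Ldha hold 5 cores each, that of P4ha2 holds 3, those of Slc16a3, Pgk1 and Pdk2 hold 2 each, and that of Hk2 holds 1. Overlapping matches on opposite strands count separately, so that 1 CACGTG gives 2 cores. Gpi1, like Tpi1, had a window with no core.

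Most of the module rose with the mixture and with IL12 alone. In the mixture against Mock, 30 of the 38 members were higher, 3 were lower (Hk1, Pdk1 and Pdk2) and 5 did not pass, at a Benjamini-Hochberg adjusted p under 0.05 in edgeR's quasi-likelihood test; every adjusted p here comes from that test unless another is named. Across all tested genes 63.9% were called in this comparison, with 32% of all genes higher and 31.9% lower. The members' median log2 fold change was 1.09, against -0.00 over all genes, and 21 of them rose or fell by at least 2-fold, as did 19.8% of all genes. The mark bis stands on 6 column names without explanation, on both mixture libraries and on no Mock library. With this mark as a covariate the members' median was 0.93. The mark differs within a group only in IL12 and DRIL18, so its effect was estimated from the gaps between replicates there. The members' median gap was 0.21 in IL12 and -0.03 in DRIL18. With IL12 alone, 30 members were higher, 2 lower (Ldhb and Pdk2) and 6 did not pass, where 46.6% of all genes were called (23% higher, 23.6% lower); the members' median was 0.95. Together the members took 2.56% and 2.55% of all counts in the mixture libraries, 1.95% and 2.23% in IL12, 1.49% and 1.46% in DRIL18, 1.17% and 1.19% in Mock, and 1.03% and 1.06% in NoEp. For 15 members, both mixture libraries lay above both IL12 libraries, these above both DRIL18 libraries, and these above both Mock libraries, an order that 5.88% of all tested genes showed.

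**Figure D1:**
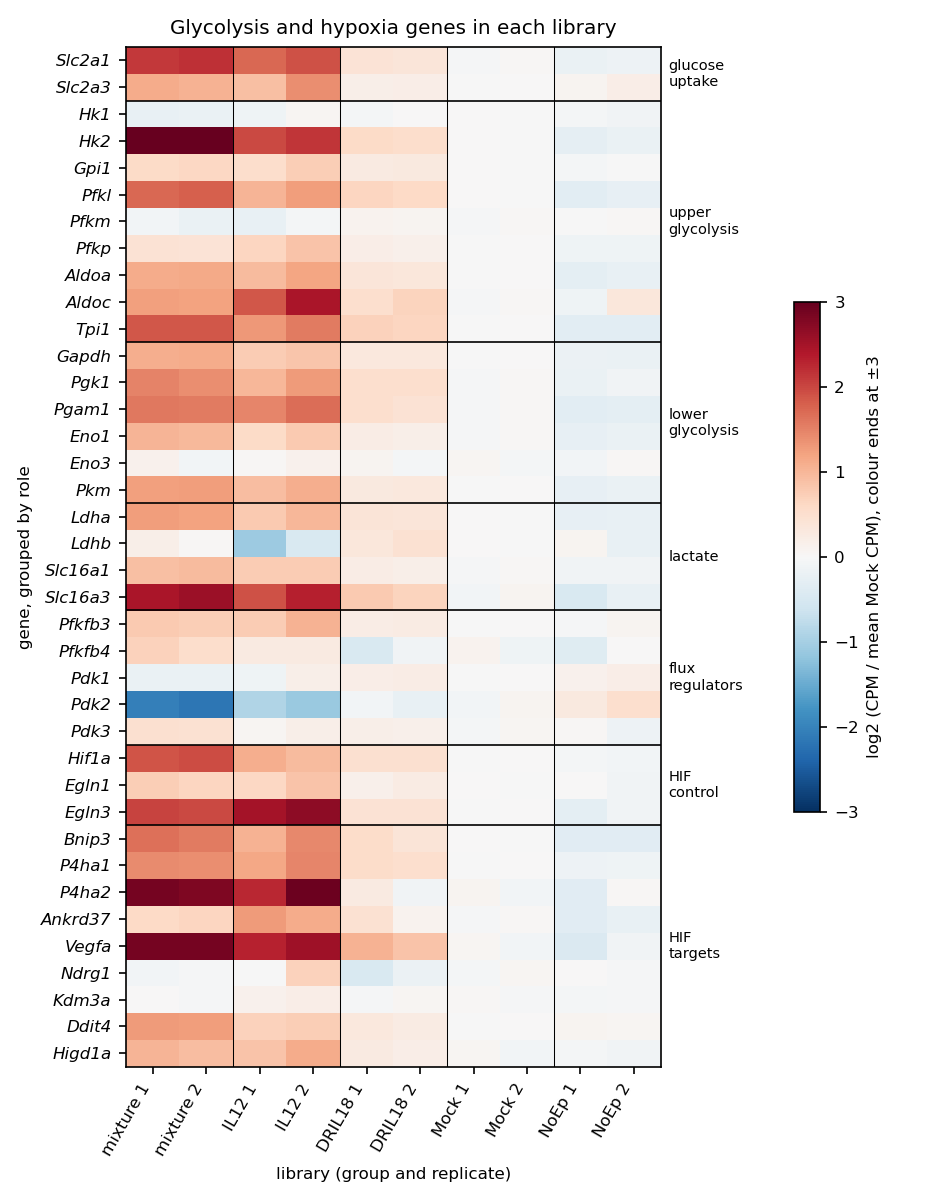
Level of each of the 38 genes in each of the 10 libraries, as log2 of CPM over the mean of the 2 Mock libraries; rows are genes grouped by role, columns are libraries, and colours end at ±3. The mixture and IL12 columns are red over most rows, DRIL18 columns are pale red, Pdk2 is blue in the mixture and IL12, and within IL12 replicate 2 is deeper than replicate 1 for most genes.

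Glucose transporters rose in both groups that received IL-12 mRNA. Slc2a1, the basal glucose transporter GLUT1, stood at 302 and 315 CPM in the mixture, 228 and 258 in IL12, 91.5 and 89.1 in DRIL18, 67.6 and 70.2 in Mock, and 59.7 and 61.5 in NoEp. The groups did not overlap and fell into that order. Slc2a1 was 4.48-fold higher in the mixture than in Mock (log2 fold change 2.16 ± 0.05 SE, adjusted p = 2.44e-26) and 3.53-fold higher in IL12 (1.82 ± 0.05, adjusted p = 6.78e-24). Slc2a3, the high-affinity transporter GLUT3, had 272 and 256 CPM in the mixture, 235 and 326 in IL12, 141 and 144 in DRIL18, 124 and 126 in Mock, and 133 and 143 in NoEp. Its mixture libraries lay between the 2 IL12 libraries, and both groups lay above Mock, by 1.08 ± 0.08 in the mixture (adjusted p = 8.65e-14) and 1.17 ± 0.08 in IL12 (adjusted p = 4.53e-14).

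In the upper, energy-investing steps, 7 of 9 members rose in the mixture and 7 in IL12. Hk2, the inducible hexokinase that can bind mitochondria, was at 731 and 714 CPM in the mixture, 205 and 229 in IL12, 76.6 and 75.2 in DRIL18, 51.9 and 51.7 in Mock, and 43.2 and 45.4 in NoEp. Every mixture library had more than 3 times the level of any other library. Hk2 was 13.9-fold higher in the mixture than in Mock (3.80 ± 0.05, adjusted p = 7.17e-33), the largest change of the module, and 4.19-fold higher in IL12 (2.07 ± 0.05, adjusted p = 8.08e-26). Hk1, the housekeeping hexokinase, had 246 and 248 CPM in the mixture against 285.3 and 284.6 in Mock and fell by 0.20 ± 0.04 (adjusted p = 0.000108). Pfkl, the liver-type phosphofructokinase, had 332 and 346 CPM in the mixture, 203 and 241 in IL12, 158 and 151 in DRIL18, 101 and 99.9 in Mock, and 81.1 and 85.0 in NoEp, again without overlap. Its rise was 1.75 ± 0.05 in the mixture (adjusted p = 2.94e-23) and 1.14 ± 0.05 in IL12 (adjusted p = 6.99e-18), while the muscle type Pfkm passed in neither (-0.14 in both). Tpi1, triosephosphate isomerase, had 1265 and 1258 CPM in the mixture, 854 and 1014 in IL12, 560.1 and 543 in DRIL18, 341 and 349 in Mock, and 277 in both NoEp libraries. It rose by 1.87 ± 0.05 in the mixture and 1.44 ± 0.05 in IL12.

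The aldolases did not move alike. Aldoc, the brain-type aldolase and the lower of the pair per exon length, had 14.3 and 14.0 CPM in the mixture, 22.1 and 33.4 in IL12, 8.68 and 9.63 in DRIL18, 5.91 and 6.27 in Mock, and 5.55 and 7.65 in NoEp. IL12 was the highest group and the mixture lay below it without overlap. Aldoc rose by 1.22 ± 0.15 in the mixture (adjusted p = 2.04e-08) and by 2.19 ± 0.14 in IL12 (adjusted p = 3.66e-14). Aldoa, the main aldolase, rose by 1.13 ± 0.05 in the mixture and 1.08 ± 0.05 in IL12. The remaining members here, Gpi1 (glucose-6-phosphate isomerase) and Pfkp (the platelet-type phosphofructokinase), rose by 0.60 and 0.42 in the mixture and by 0.63 and 0.75 in IL12.

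In the lower, energy-yielding steps 5 of 6 members rose in each of these groups, and Eno3, the muscle enolase, did not pass (0.03 in the mixture, 0.09 in IL12). Pgam1, phosphoglycerate mutase, had 427 and 419.6 CPM in the mixture, 392 and 458 in IL12, 202 and 193 in DRIL18, 140.4 and 145 in Mock, and 115 and 117 in NoEp. The mixture lay within the IL12 range, and both rose by 1.57 ± 0.05. Pgk1, phosphoglycerate kinase, had 1845 and 1736 CPM in the mixture, 1303 and 1603 in IL12, 927 and 925 in DRIL18, 646 and 669 in Mock, and 572 and 612 in NoEp. Pkm, pyruvate kinase, had 3052 and 3083 CPM in the mixture, 2468 and 2751 in IL12, 1593 and 1596 in DRIL18, 1275 and 1306 in Mock, and 1094 and 1123 in NoEp. Gapdh, often used as a constant reference gene, had 5559.6 and 5656 CPM in the mixture, 4387 and 4662 in IL12, 3227 in both DRIL18 libraries, 2578 and 2619 in Mock, and 2307 and 2269.7 in NoEp. None of these 3 genes overlapped between groups, and in each the order was mixture, IL12, DRIL18, Mock, NoEp. Against Mock they rose by 1.45 ± 0.06 (Pgk1), 1.25 ± 0.04 (Pkm) and 1.11 ± 0.03 (Gapdh) in the mixture, and by 1.14 ± 0.05, 1.02 ± 0.04 and 0.80 ± 0.03 in IL12. Several of these enzymes have near-identical processed copies in the mouse genome, and the sources used here do not say how reads with several alignments were counted, so their levels are uncertain to that extent. Eno1, the main enolase, rose by 1.00 ± 0.04 in the mixture and 0.69 ± 0.04 in IL12.

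**Figure D2:**
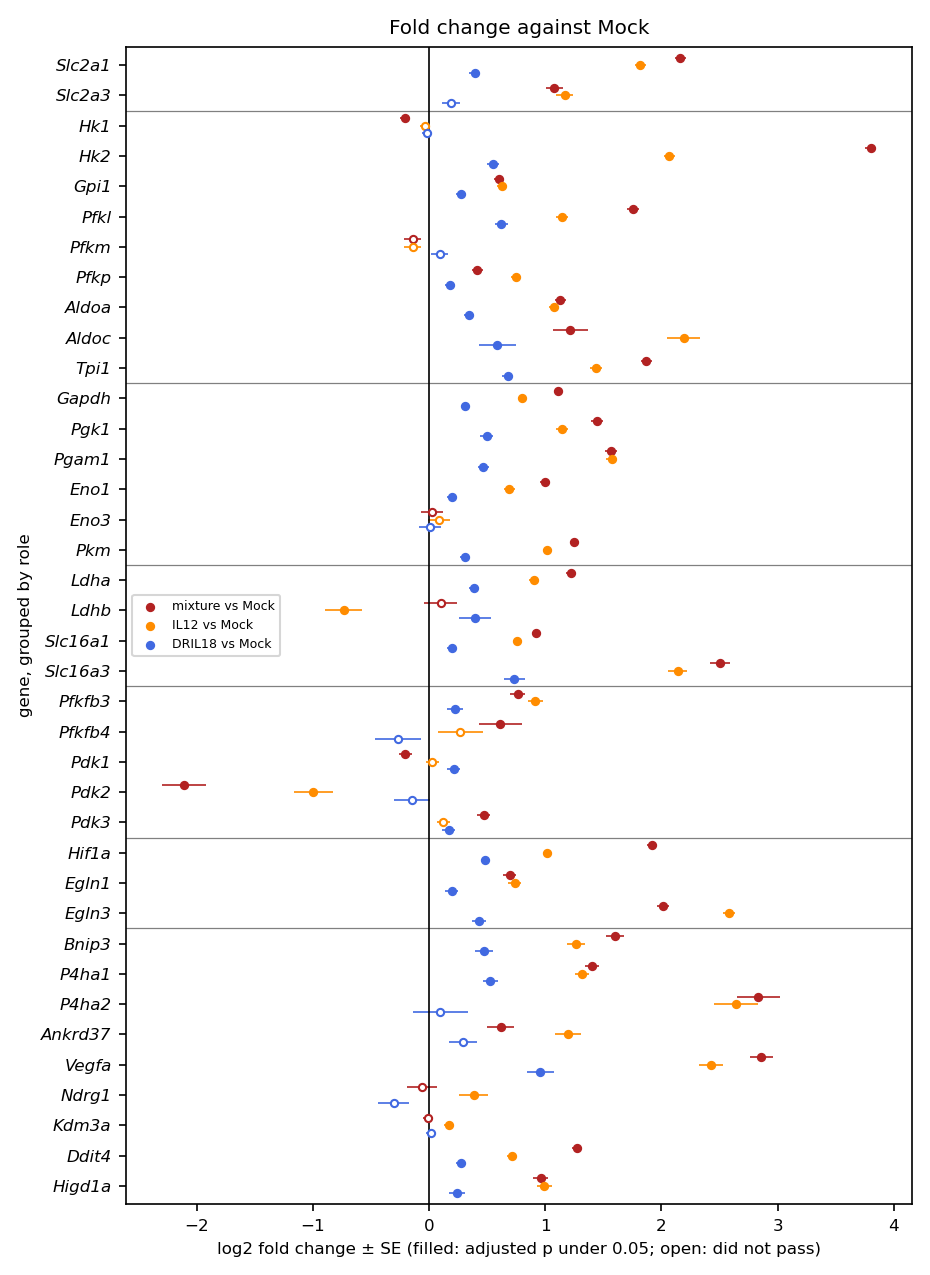
Log2 fold change against Mock with its SE for each gene in the mixture (dark red), IL12 (orange) and DRIL18 (blue); filled points passed at an adjusted p under 0.05 and open points did not. Hk2 stands farthest to the right at 3.80 in the mixture, Pdk2 farthest to the left at -2.11, and the DRIL18 points stay below 1.

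RNA of 3 of the 4 genes for lactate formation and export rose in both groups that received IL-12 mRNA, with Ldhb as the exception. Ldha, the lactate dehydrogenase subunit that favours lactate formation, had 2991 and 2895 CPM in the mixture, 2181.9 and 2526 in IL12, 1660.2 and 1631 in DRIL18, 1267 and 1252 in Mock, and 1065 and 1077 in NoEp. The groups did not overlap, and Ldha rose by 1.22 ± 0.04 in the mixture and 0.90 ± 0.04 in IL12. Ldhb, the subunit found in oxidative tissues, had 7.88 and 7.20 CPM in the mixture, 3.30 and 5.13 in IL12, 8.91 and 9.57 in DRIL18, 7.07 and 6.99 in Mock, and 7.41 and 6.01 in NoEp. It fell in the IL12 group (-0.73 ± 0.16, adjusted p = 0.00026; -0.45, adjusted p = 0.0279 without IL12 replicate 1) and was at 0.10 ± 0.14 in the mixture (adjusted p = 0.558). Slc16a3, the lactate exporter MCT4, had 272 and 293 CPM in the mixture, 187 and 252 in IL12, 86.6 and 79.4 in DRIL18, 46.8 and 53.0 in Mock, and 36.5 and 42.6 in NoEp. It was 5.67-fold higher in the mixture than in Mock (2.50 ± 0.08, adjusted p = 7.54e-22) and 4.41-fold higher in IL12 (2.14 ± 0.08, adjusted p = 1.52e-19). Slc16a1, the broadly expressed transporter MCT1, had 181 and 185 CPM in the mixture, 164 and 163 in IL12, 112 and 109 in DRIL18, 95.0 and 98.2 in Mock, and 90.1 and 90.2 in NoEp, a rise of 0.92 ± 0.04 in the mixture and 0.76 ± 0.04 in IL12.

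Regulators of flux were the least uniform role. Of the bifunctional enzymes that set fructose-2,6-bisphosphate, an activator of phosphofructokinase, Pfkfb3 had 67.7 and 64.8 CPM in the mixture, 66.4 and 81.1 in IL12, 45.3 and 46.0 in DRIL18, 38.9 and 39.3 in Mock, and 38.2 and 41.1 in NoEp. It rose by 0.76 ± 0.07 in the mixture and 0.92 ± 0.07 in IL12. Pfkfb4 was low, with 4.70 and 4.21 CPM in the mixture, 3.53 and 3.49 in IL12, 2.13 and 2.71 in DRIL18, 3.14 and 2.68 in Mock, and 2.26 and 2.95 in NoEp. Its rise in the mixture (0.61 ± 0.19, adjusted p = 0.00497) was not called with the bis mark as a covariate (0.46, adjusted p = 0.161). Without Mock replicate 2 the rise was 0.51 and was not called either.

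The pyruvate dehydrogenase kinases, which inhibit pyruvate dehydrogenase and are known HIF targets in part, went in different directions. Pdk2 had 1.34 and 1.24 CPM in the mixture, 3.004 and 2.61 in IL12, 5.31 and 4.802 in DRIL18, 5.29 and 5.92 in Mock, and 6.87 and 7.90 in NoEp. Mixture and IL12 libraries lay below all others, and Pdk2 fell by 2.11 ± 0.19 on the log2 scale in the mixture (adjusted p = 2.15e-11) and by 1.00 ± 0.17 in IL12 (adjusted p = 1e-05). Pdk1 had 139 and 138 CPM in the mixture, 146 and 179 in IL12, 182 and 186 in DRIL18, 159 and 159.6 in Mock, and 174 and 182 in NoEp. The mixture was the lowest group and DRIL18 the highest. Pdk1 fell by 0.20 ± 0.05 in the mixture (adjusted p = 0.00161, and 0.0645 with DESeq2), while in IL12 the 2 libraries lay on either side of Mock (0.03 ± 0.05, adjusted p = 0.695; -0.12, adjusted p = 0.0311 without IL12 replicate 2). Pdk3 rose in the mixture by 0.47 ± 0.06 (adjusted p = 1.02e-08) and was at 0.12 in IL12 (adjusted p = 0.0817).

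Hif1a and both HIF prolyl hydroxylases among the members, Egln1 and Egln3, rose. Hif1a had 785 and 815 CPM in the mixture, 451 and 405 in IL12, 297 and 295 in DRIL18, 209 and 214 in Mock, and 204 and 199 in NoEp. None of the groups overlapped, and Hif1a was 3.79-fold higher in the mixture than in Mock (1.92 ± 0.04, adjusted p = 1.34e-26) and 2.03-fold higher in IL12 (1.02 ± 0.04, adjusted p = 3.83e-19). Egln3, the hydroxylase PHD3 and itself a HIF target, had 249 and 239.9 CPM in the mixture, 340.3 and 387 in IL12, 81.6 and 81.8 in DRIL18, 59.9 and 61.5 in Mock, and 49.8 and 56.7 in NoEp. As with Aldoc, IL12 was the highest group, 5.99-fold above Mock (2.58 ± 0.05, adjusted p = 7.93e-27), and the mixture stood 4.03-fold above Mock (2.01 ± 0.05, adjusted p = 1.92e-24). Egln1, the main HIF prolyl hydroxylase PHD2, had 161 and 151 CPM in the mixture, 147 and 174 in IL12, 106 and 114 in DRIL18, 96.7 and 96.1 in Mock, and 97.0 and 89.5 in NoEp, and rose by 0.69 ± 0.06 in the mixture and 0.74 ± 0.06 in IL12. Outside the members, and named after their values were seen, the prolyl hydroxylase Egln2 did not pass in the mixture (-0.04 ± 0.05, adjusted p = 0.555) and the asparaginyl hydroxylase Hif1an was lower (-0.25 ± 0.05, adjusted p = 4.58e-05).

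Of the 9 other HIF targets, 7 rose in the mixture and all 9 in IL12. Vegfa, the angiogenic growth factor, had 42.5 CPM in both mixture libraries, 28.8 and 34.1 in IL12, 12.1 and 10.6 in DRIL18, 6.14 and 5.56 in Mock, and 4.36 and 5.48 in NoEp. The groups lay apart, and Vegfa was 7.26-fold higher in the mixture than in Mock (2.86 ± 0.10, adjusted p = 2.42e-21) and 5.37-fold higher in IL12 (2.43 ± 0.10, adjusted p = 1.1e-18). P4ha2, a collagen prolyl hydroxylase subunit, had 14.9 and 14.0 CPM in the mixture, 9.73 and 15.6 in IL12, 2.45 and 1.89 in DRIL18, 2.15 and 1.90 in Mock, and 1.60 and 2.09 in NoEp. It was high in the libraries that received IL-12 mRNA and low in the other 6, with rises of 2.83 ± 0.18 in the mixture and 2.64 ± 0.19 in IL12. Bnip3, a mitophagy receptor, had 109 and 102 CPM in the mixture, 72.3 and 94.6 in IL12, 50.8 and 45.9 in DRIL18, 35.4 and 34.3 in Mock, and 27.7 and 27.4 in NoEp, and rose by 1.60 ± 0.08 and 1.26 ± 0.08. P4ha1 (1.40 in the mixture, 1.31 in IL12), Ddit4, an mTORC1 inhibitor (1.27, 0.71), Higd1a, a mitochondrial protein (0.96, 0.99), and Ankrd37 (0.62, 1.20) also rose. Ndrg1 (-0.06) and the histone demethylase Kdm3a (-0.01) did not pass in the mixture. In IL12 they passed at 0.39 and 0.17, though Kdm3a not with total counts in place of TMM (0.08, adjusted p = 0.117). Ndrg1 had 17.99 and 29.3 CPM in the 2 IL12 libraries against 17.3 and 19.0 in Mock, and without IL12 replicate 2 its difference was -0.01 (adjusted p = 0.952), while without IL12 replicate 1 it was 0.70 (adjusted p = 2.51e-07).

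**Figure D3:**
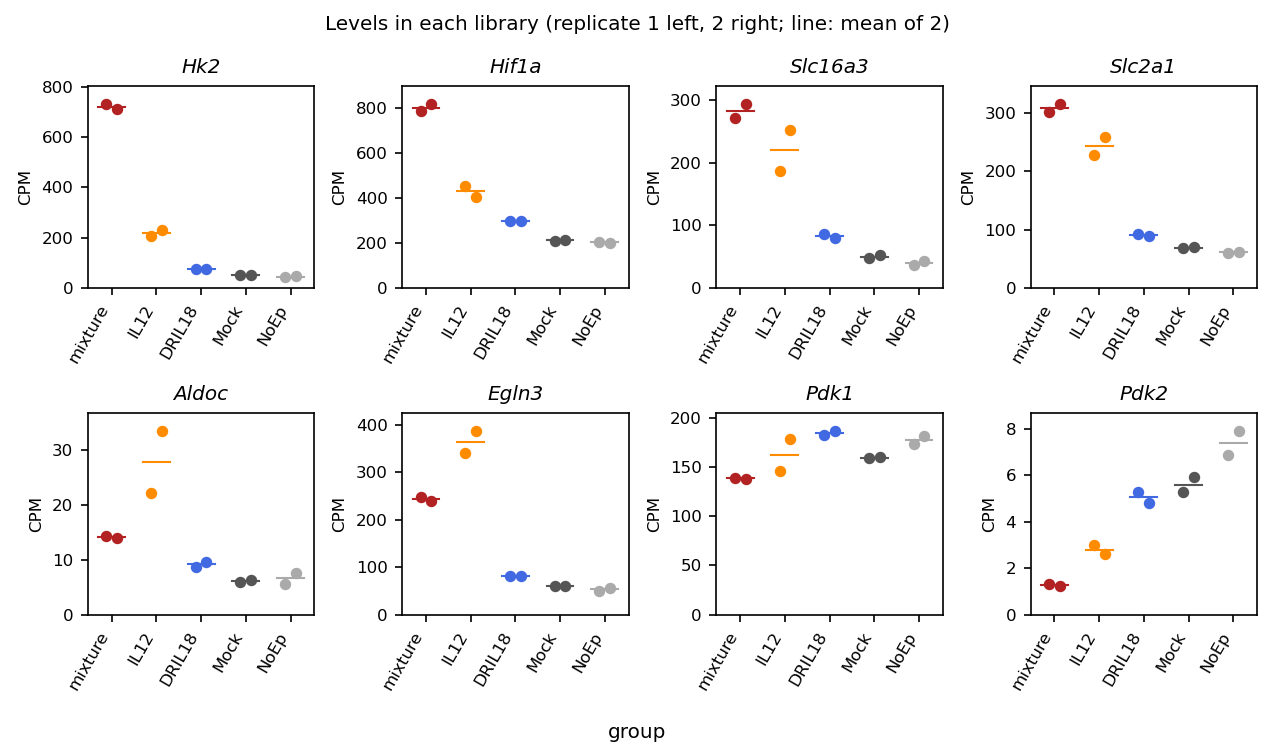
CPM of 8 genes in each library, each panel with its own axis from 0; points are libraries (replicate 1 left, replicate 2 right), lines the mean of 2, and groups run from mixture to NoEp. Hk2, Hif1a, Slc16a3 and Slc2a1 step down from the mixture to Mock, Aldoc and Egln3 peak in IL12, Pdk1 is lowest in the mixture and Pdk2 steps up.

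With DRIL18 alone the module moved in the same direction as a whole but by less. Against Mock, 28 of the 38 members were higher, 0 lower and 10 did not pass, where 24.3% of all genes were called (12.2% higher, 12.1% lower). The count of 0 lower members is from edgeR, and DESeq2 and limma-voom also gave 0; 1 member, Ndrg1, was lower at an unadjusted p under 0.05, and 6 of the 18 alternatives called 1 member lower. The members' median log2 fold change was 0.29 and none reached 2-fold. Vegfa rose most, by 0.96 ± 0.12 (adjusted p = 1.44e-07), followed by Slc16a3 (0.74 ± 0.09), Tpi1 (0.68 ± 0.05), Pfkl (0.62 ± 0.05), Aldoc (0.59 ± 0.16), Hk2 (0.55 ± 0.05) and P4ha1 (0.53 ± 0.06). Hif1a rose by 0.49 ± 0.04 (adjusted p = 1.68e-10), Egln3 by 0.43 ± 0.06, Slc2a1 by 0.39 ± 0.05 and Gapdh by 0.31 ± 0.03. Pdk1 rose (0.21 ± 0.05, adjusted p = 0.00329), opposite to its fall in the mixture, and Ldhb rose (0.39 ± 0.14, adjusted p = 0.0378), opposite to its fall in IL12. P4ha2, which stood 7.13-fold above Mock in the mixture, was at 0.10 ± 0.24 with DRIL18 (adjusted p = 0.829). Of the 28 calls, 20 held in all 18 alternatives. DESeq2 ended those of Aldoc, Ldhb, Pdk1, Pdk3 and Egln1 (adjusted p = 0.0708 to 0.141). The bis mark as a covariate ended those of Aldoc, Ldhb, Pfkfb3, Pdk1, Pdk3, Egln1 and Higd1a (adjusted p = 0.0622 to 0.296). The call of Ldhb was lost without any single DRIL18 or Mock library (adjusted p = 0.08 to 0.213), that of Pfkfb3 (0.22) likewise (0.0615 to 0.104), that of Aldoc without DRIL18 replicate 2 (0.0782) or Mock replicate 1 (0.0736), that of Egln1 (0.19) without DRIL18 replicate 2 or either Mock library (0.0786 to 0.21), and that of Pdk1 with DESeq2 (0.0897). The calls of Pfkp (0.18), Pdk3 (0.17) and Higd1a (0.24) were lost without DRIL18 replicate 1 (0.0672, 0.146 and 0.113), and each also without at least 1 Mock library.

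Between the controls the differences were smaller. In Mock against NoEp, 12 members were higher, 0 lower and 26 did not pass, where 6.98% of all genes were called (3.34% higher, 3.64% lower), and the members' median log2 fold change was 0.13, or 0.27 with the bis mark as a covariate. DESeq2 and limma-voom also gave 0 lower, while 2 members, Pdk1 and Pdk2, were lower at an unadjusted p under 0.05 in edgeR, and with the compared groups alone 3 were called lower. Tpi1 rose by 0.32 ± 0.05 (adjusted p = 0.000129), Pgam1 by 0.30 ± 0.05 (adjusted p = 0.000302), Aldoa by 0.26 ± 0.05, Ldha by 0.23 ± 0.04, Pkm by 0.22 ± 0.04 and Gapdh by 0.18 ± 0.03 (adjusted p = 0.000877), and these 6 calls held in all 18 alternatives. Slc16a3 (0.33), Bnip3 (0.34), Pfkl (0.28), Hk2 (0.23), Eno1 (0.22) and Slc2a1 (0.18) passed, but each lost its call without at least 1 Mock library (adjusted p = 0.0512 to 0.325), and 7 members were called when either Mock library was left out. Hif1a was at 0.07 ± 0.04 (adjusted p = 0.409). NoEp libraries all carry the bis mark and Mock libraries do not, so the mark's effect was estimated from IL12 and DRIL18 only.

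The mixture was then set against each single mRNA, which asks what the other mRNA added. Against DRIL18 alone, 30 members were higher and 4 lower (Hk1, Pfkm, Pdk1 and Pdk2), where 57.3% of all genes were called (28.3% higher, 29% lower). Hk2 differed most (3.25 ± 0.05), then P4ha2 (2.74 ± 0.18), and Pdk2 fell most (-1.96 ± 0.19). Against IL12 alone, 17 members were higher, 10 lower and 11 did not pass, where 52.2% of all genes were called (25.8% higher, 26.3% lower). Without IL12 replicate 1 the counts were 17 higher and 15 lower, and without IL12 replicate 2 they were 22 higher and 6 lower. Hk2 was higher by 1.74 ± 0.04 (adjusted p = 3.29e-25), Hif1a by 0.90 ± 0.04 (adjusted p = 2.65e-18), Ldhb by 0.84 ± 0.16, Pfkl by 0.61 ± 0.05, Ddit4 by 0.56 ± 0.04 and Vegfa by 0.43 ± 0.08. Pdk2 was lower (-1.11 ± 0.21, adjusted p = 3.65e-05), as were Aldoc (-0.97 ± 0.13, adjusted p = 9.29e-08), Ankrd37 (-0.58 ± 0.11), Egln3 (-0.57 ± 0.05, adjusted p = 1.12e-11) and Pfkp (-0.33 ± 0.04). For Aldoc, Ankrd37, Egln3 and Pfkp both IL12 libraries lay above both mixture libraries and these above both Mock libraries, as in 4.06% of all tested genes. IL12 against DRIL18 gave 31 higher and 4 lower members (Pfkm, Ldhb, Pdk1 and Pdk2), where 39.5% of all genes were called (18.9% higher, 20.6% lower), with Egln3 at 2.15 ± 0.05 and P4ha2 at 2.54 ± 0.18. Against DRIL18, the call of Pfkm in the mixture (-0.23) was lost without DRIL18 replicate 1 (adjusted p = 0.0551) or mixture replicate 2 (0.0983), and that of Ankrd37 (0.32) without DRIL18 replicate 2 (0.16, adjusted p = 0.311). In IL12, Pfkm (-0.23) and Pdk1 (-0.18) lost theirs without IL12 replicate 1 (-0.15 and -0.04), Pfkfb4 (0.53) and Kdm3a (0.16) without DRIL18 replicate 1, and Ndrg1 (0.69) fell to 0.30 without IL12 replicate 2.

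Within IL12 the module's level varied between the libraries more than within any other group. Replicate 2 was above replicate 1 in 33 of 38 members, with a median log2 difference of 0.21, while over all genes that median was -0.01. In the other groups the members' medians lay between -0.03 and 0.04. Hif1a was among the 5 members lower in IL12 replicate 2, at 405 CPM against 451. The bis mark is on IL12 replicate 2 and not on replicate 1, and DRIL18, where it also marks replicate 2 only, had a median of -0.03. For the mixture against IL12 the members' median log2 fold change was 0.13 with both libraries, -0.06 without IL12 replicate 1, 0.21 without IL12 replicate 2 and 0.026 with the bis mark as a covariate. Leaving out IL12 replicate 2 ended the calls of Hk1 (-0.17 with all libraries, -0.08 without), Pfkfb3 (-0.15 with all libraries, -0.00 without), Pdk1 (-0.23 and -0.08) and Ndrg1 (-0.45 and -0.05), and added calls of higher for Slc2a3 (0.17, adjusted p = 0.00313), Pgam1 (0.11, adjusted p = 0.0354), Aldoa (0.17), P4ha1 (0.24) and P4ha2 (0.57). Leaving out IL12 replicate 1 instead added calls of lower for Slc2a3 (-0.31, adjusted p = 3.51e-07), Pgam1 (-0.12, adjusted p = 0.0186), Gpi1 (-0.13), Egln1 (-0.16) and Higd1a (-0.16), so Slc2a3 and Pgam1 were called in opposite directions by which IL12 library was left out. Without IL12 replicate 1 the log2 fold changes of Slc16a3 (0.36 with all, 0.16 without), Bnip3 (0.34 and 0.16), Pgk1 (0.30 and 0.15), Eno1 (0.30 and 0.20), Pkm (0.23 and 0.15) and Ldhb (0.84 and 0.55) shrank by more than 1.5 times but stayed called without that library, while those of Hk1 (-0.26), Pfkfb3 (-0.29), Pdk1 (-0.37) and Ndrg1 (-0.76) grew. Without IL12 replicate 2, Slc16a3 (0.59), Bnip3 (0.55) and Pgk1 (0.46) grew. Other alternatives also ended calls: with DESeq2 those of Slc16a3 (adjusted p = 0.0559), Ndrg1 (adjusted p = 0.135) and Pfkfb3 (adjusted p = 0.11), and Pfkfb3 lost its call in 6 more, among them without either mixture library (adjusted p = 0.0522 and 0.201) or either Mock library (adjusted p = 0.0513 and 0.051). The calls of Hk2, Hif1a, Pfkl, Ddit4, Vegfa, Pdk2, Aldoc (-0.65 without IL12 replicate 2), Egln3 and Pfkp held in all 18 alternatives.

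Whether both mRNAs together gave more or less than the sum of their single log2 effects was tested by the interaction, the log2 fold change of the mixture less those of IL12 and DRIL18, all against the same Mock libraries. Of the 38 members, 3 were above the sum, 18 below it and 17 did not pass, where 31.6% of all genes passed (14.6% above, 17.1% below), and the members' median was -0.17. Hk2 was above the sum by 1.18 ± 0.06 (adjusted p = 1.1e-15), Hif1a by 0.42 ± 0.06 (adjusted p = 9.69e-07) and Ddit4 by 0.29 ± 0.06 (adjusted p = 0.000226). Aldoc was farthest below (-1.56 ± 0.20, adjusted p = 2.65e-07), then Egln3 (-1.002 ± 0.07, adjusted p = 1.85e-12), Pdk2 (-0.97 ± 0.26, adjusted p = 0.00425), Ankrd37 (-0.88 ± 0.16), Vegfa (-0.52 ± 0.14), Pfkp (-0.51 ± 0.06) and Pgam1 (-0.48 ± 0.07). For Pdk2, which fell in the mixture and in IL12, a value below the sum is a deeper fall. Gapdh (-0.00 ± 0.05), Pfkl (-0.01 ± 0.07), Slc16a1 (-0.03 ± 0.06) and Slc2a1 (-0.05 ± 0.07) did not pass. Without IL12 replicate 2 the count was 6 above and 12 below the sum, and without IL12 replicate 1 it was 3 above and 24 below. The calls of Slc2a3, Tpi1, Slc16a3, Egln1, Kdm3a and Higd1a were lost without IL12 replicate 2 (-0.148 to -0.018). That of Slc2a3 (-0.28, adjusted p = 0.0473) was lost in most other alternatives too. DESeq2 also ended those of Tpi1 (adjusted p = 0.108), Slc16a3 (0.257), Egln1 (0.201) and Higd1a (0.0624). Slc16a3, Egln1, Kdm3a and Higd1a also lost theirs when single DRIL18, mixture or Mock libraries were left out. Without IL12 replicate 2, Gpi1 (-0.31 with all, -0.20 without), Aldoa (-0.29 and -0.17), Pfkfb3 (-0.38 and -0.23), Pdk1 (-0.44 and -0.29) and P4ha1 (-0.44 and -0.28) shrank by more than 1.5 times. The 3 genes above the sum, and Aldoc, Egln3, Pdk2, Ankrd37, Vegfa, Pfkp and Pgam1 below it, held in all 18 alternatives.

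**Figure D4:**
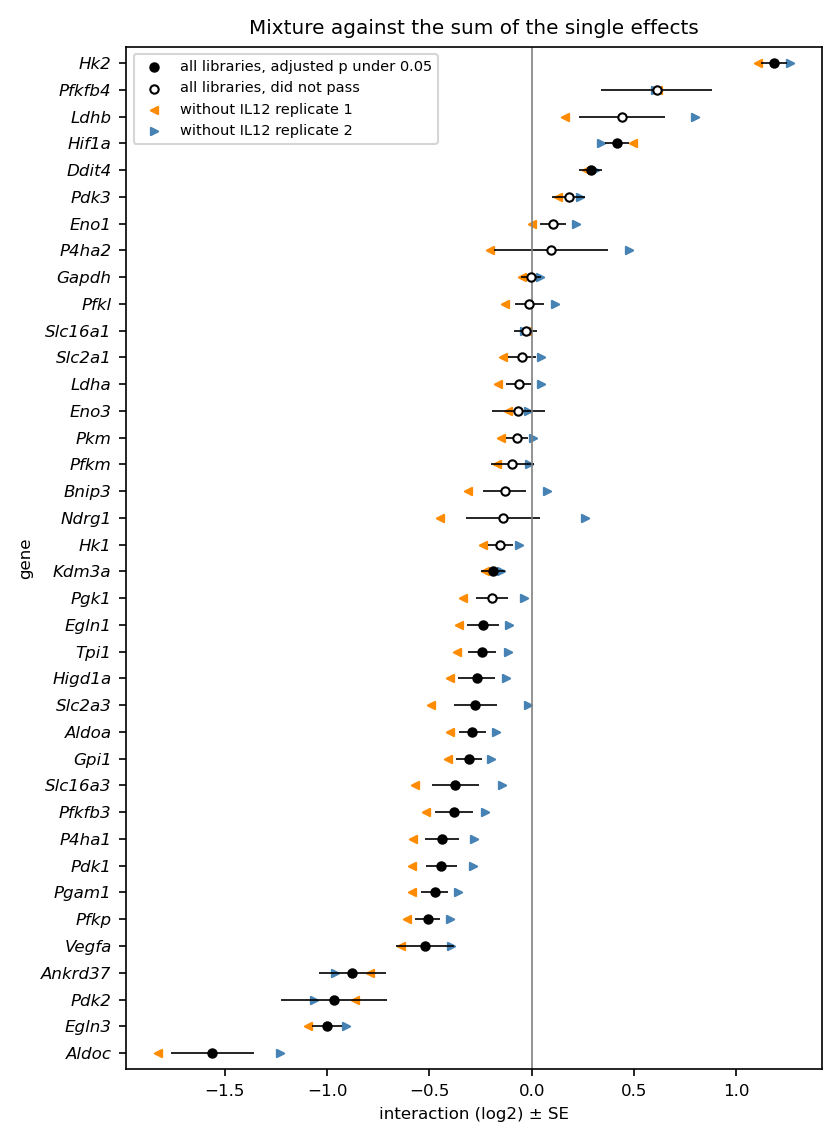
Interaction of each gene on the log2 scale with its SE, sorted from above to below the sum of the single effects; filled black points passed at an adjusted p under 0.05, open points did not, and triangles give the value without IL12 replicate 1 (orange) or replicate 2 (blue). Hk2 stands alone at 1.18, Aldoc at -1.56 is farthest below, and for most genes the blue triangle lies to the right of the orange one.

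The isoforms within an enzyme family shifted as well, compared here as CPM per kilobase of exon. Hk2 made up 80.5% ± 0.348 of hexokinase RNA in the mixture (mean ± SD, n = 2), 52.3% ± 0.259 in IL12, 27.2% ± 0.823 in DRIL18, 20.3% ± 0.0311 in Mock and 18.7% ± 0.938 in NoEp, with Hk1 most of the rest. Pfkl made up 52.9% ± 1.23 of phosphofructokinase RNA in the mixture, 37.5% ± 0.486 in IL12, 36.4% ± 0.190 in DRIL18, 29.4% ± 0.511 in Mock and 26.9% ± 0.529 in NoEp. Slc2a1 was 70.7% ± 1.51 of the pair of glucose transporters in the mixture, 64.4% ± 3.27 in IL12, 56.7% ± 0.867 in DRIL18 and 53.2% ± 0.306 in Mock. For the lactate transporters, Slc16a3 was 56.2% ± 0.945 of the pair in the mixture, 52.5% ± 5.37 in IL12, 38.4% ± 0.878 in DRIL18 and 30.0% ± 1.33 in Mock. Mixture and IL12 overlapped for Slc16a3 and lay apart for Hk2, Pfkl and Slc2a1. Among pyruvate dehydrogenase kinases, Pdk3 was 62.5% ± 0.123 in the mixture and 49.6% ± 1.04 in Mock, and Pdk2 0.842% ± 0.0353 and 4.01% ± 0.195. These shares were not tested beyond the single genes above. The shares also depend on the exon lengths used, such as 13401 bases for Pfkp and 6675 for Pfkl. By mean CPM alone, Pfkp stood above Pfkl in the mixture (520 against 339), and Pdk1 above Pdk3 (138 against 77.7). In Mock, Slc2a3 stood above Slc2a1 (125 against 68.9), and in IL12 Hk1 above Hk2 (279 against 217). In the mixture, Hk2, Slc2a1 and Slc16a3 were the larger isoform by CPM as well.

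**Figure D5:**
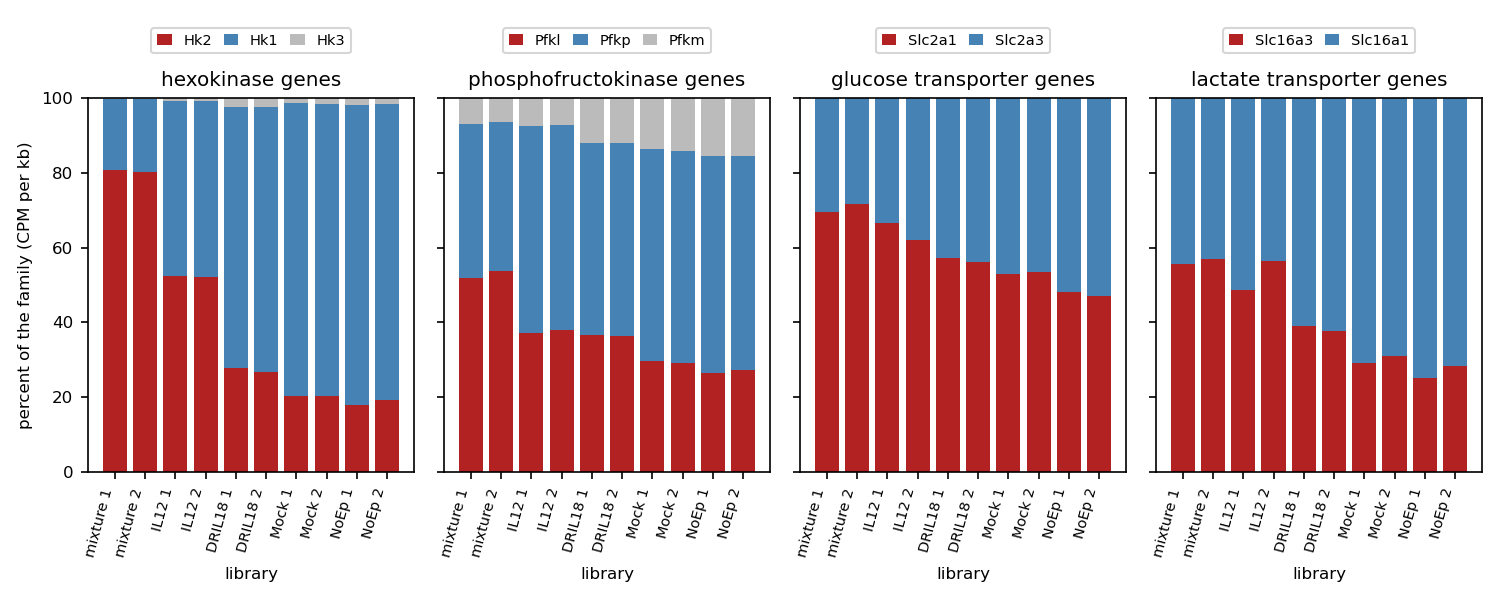
Share of each isoform in its family's CPM per kilobase of exon, in percent, for hexokinases, phosphofructokinases, glucose transporters and lactate transporters; bars are the 10 libraries from mixture to NoEp. The red Hk2 share is about 80.5% in the mixture and 20.3% in Mock, and the red shares of Pfkl, Slc2a1 and Slc16a3 are also highest in the mixture on average.

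Genes of neighbouring pathways were counted from separate lists, whose counts in the mixture against Mock stand beside the 32% of all genes called higher and 31.9% called lower. Of 20 tested other glycolytic enzymes, isoforms and transporters, 11 were higher and 5 lower in the mixture than in Mock (median log2 fold change 0.30). Slc2a6, a transporter of the glucose transporter family that lies in lysosomes, had 48.9 and 46.2 CPM in the mixture, 1.08 and 1.01 in IL12, 7.53 and 7.78 in DRIL18, 1.95 and 2.14 in Mock, and 2.64 and 2.09 in NoEp. It fell in IL12 (-0.97 ± 0.21, adjusted p = 0.000298), rose in DRIL18 (1.90 ± 0.14) and rose far more in the mixture (4.54 ± 0.11, adjusted p = 4.57e-25). Pgm1, phosphoglucomutase, Bsg, the chaperone of the lactate transporters, and Tigar, a fructose-2,6-bisphosphatase, rose in the mixture by 1.26, 1.05 and 0.98.

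Of 35 tested further genes of the HIF pathway, 21 were higher and 10 lower in the mixture (median 0.45). Ak4, a mitochondrial adenylate kinase, had 68.3 and 63.0 CPM in the mixture, 31.5 and 41.0 in IL12, 15.6 and 15.2 in DRIL18, 3.85 and 4.55 in Mock, and 3.04 and 2.84 in NoEp, and rose by 3.97 ± 0.11 in the mixture, 3.11 ± 0.11 in IL12 and 1.88 ± 0.12 in DRIL18. Epas1, which encodes HIF-2α, had 17.7 and 16.2 CPM in the mixture, 2.48 and 2.26 in IL12, 2.62 and 2.83 in DRIL18, and 1.08 and 1.25 in Mock. Its rise of 3.86 ± 0.18 in the mixture (adjusted p = 1.81e-18) stood above the sum of the single effects by 1.61 ± 0.28 (adjusted p = 3.94e-05). Bhlhe40, a transcriptional repressor, and Hmox1, heme oxygenase, rose by 3.07 ± 0.04 and 2.95 ± 0.13 in the mixture.

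Pathways fed by glycolysis, and upstream regulators, had called shares to be read against the 63.9% of all genes called in the mixture against Mock. Of 7 pentose phosphate genes 5 were higher and 2 lower in the mixture (median 0.33), with G6pdx, the entry enzyme, at 0.89 ± 0.05 and Pgd at 0.67 ± 0.04, and Rpe and Rpia at 0.54 and 0.34. Of 18 tricarboxylic acid cycle genes 10 were higher and 3 lower (median 0.16). Dlst, Idh3a and Mdh2 rose by 0.59, 0.56 and 0.46, and Idh2, the NADP-dependent mitochondrial isocitrate dehydrogenase, fell in the mixture (-0.88 ± 0.06) and in IL12 (-1.06 ± 0.06) but rose in DRIL18 (0.49 ± 0.05, adjusted p = 1.65e-08). Of 11 genes for pyruvate entry into mitochondria and its conversion there, 4 were higher and 2 lower (median 0.07). The pyruvate dehydrogenase subunits Dlat, Pdhb and Dld rose by 0.52, 0.46 and 0.42, and Pdpr, a regulatory subunit of the phosphatase that opposes the Pdk kinases, fell by 0.72 ± 0.06. Of 11 upstream regulators 4 were higher and 4 lower (median -0.01). Myc, which drives glycolytic genes in activated T cells, had 323 and 343 CPM in the mixture, 255 and 269 in IL12, 177 and 192 in DRIL18, and 145 and 147 in Mock, and rose by 1.19 ± 0.04, 0.85 ± 0.04 and 0.34 ± 0.04. Mycn fell in all 3 groups (-2.26, -1.22 and -1.46), Batf rose in the mixture by 1.72 ± 0.06, and Txnip, which limits glucose uptake, fell by 0.76 ± 0.04 in the mixture.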

How the data were processed

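Raw counts, whole numbers of reads per gene, were used as the authors deposited them. The submitters' processing notes name STAR 2.7.9, featureCounts, edgeR, limma and the build mm39. RNA was taken with RNeasy columns and libraries with a stranded TruSeq mRNA kit, per the labels' protocols, but no source here gives the strand setting of the counting. The authors' table of log2 CPM was not used. Symbols came from GENCODE M21, joined on Ensembl identifiers without version (52083 of 55359 matched); Aldoa stands on 2 tested identifiers, and the one with 99.9% of their counts was used.

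The 10 libraries were fitted together in edgeR 4.0.16 (R 4.3.3) with 5 group means, TMM factors (0.9547 to 1.0272) and filterByExpr, which left 15777 genes. Contrasts were compared by quasi-likelihood F tests, with Benjamini-Hochberg adjustment over all tested genes and a threshold of 0.05. The design leaves 5 residual degrees of freedom, to which the test adds prior degrees of freedom estimated from all genes. CPM use TMM-scaled library sizes. Values in every library are given for the 3 members of each role with the largest called change in the mixture against Mock, for Slc2a1, Hk2, Gapdh, Ldha, Slc16a3, Pdk1 and Hif1a, for the 4 largest called interactions, and for members called in opposite directions against Mock. Of each neighbouring list, up to 4 genes with the largest called change in the mixture and at least 5 CPM in the higher group are named. The members and lists were chosen with earlier results of these data known. Exon lengths came from GENCODE M21, and promoter windows from RefSeq on GRCm38.p6, a build other than that of the counts. The 18 alternatives were DESeq2 1.42.0, limma-voom 3.58.1, 2 other scalings, no filter, only the groups compared, the bis mark as a covariate, the replicate number as a block, and leaving out each of the 10 libraries. The test was also tested on simulated counts with known changes. Samples with the same replicate number did not deviate together (see the block in the closing section).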

Additional observations from a re-analysis of the deposited data

Results flagged for a closer look

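For 5 members the effect of adding DRIL18 mRNA differed with and without IL12 mRNA, by the interaction test and in opposite directions. Aldoc, Egln3, Pfkp, Pfkfb3 and Pdk1 were higher in DRIL18 than in Mock, and lower in the mixture than in IL12. Of all tested genes, 31.6% passed the interaction, 12.2% were higher in DRIL18 than in Mock and 26.3% lower in the mixture than in IL12. The share of all genes that met these conditions together was not counted, so whether 5 members is unusual cannot be told. On the log2 scale the DRIL18 effect with IL12 less that without was -1.56 for Aldoc, -1.002 for Egln3, -0.51 for Pfkp, -0.44 for Pdk1 and -0.38 for Pfkfb3. The values of Pfkfb3 and Pdk1 shrank to -0.23 and -0.29 without IL12 replicate 2. In the mixture against IL12, Pfkfb3 was at -0.0037 and Pdk1 at -0.08 without IL12 replicate 2, and neither was called. Pfkfb3 lost that call in 8 of the 18 alternatives, with DESeq2 at an adjusted p of 0.11. In DRIL18 against Mock, Pfkfb3 lost its call without any single DRIL18 or Mock library, and Pdk1 with DESeq2 (adjusted p = 0.0897). There Aldoc also lost its call with DESeq2 (adjusted p = 0.0708), and Pfkp without DRIL18 replicate 1 or Mock replicate 1. The bis mark as a covariate ended the calls of Aldoc, Pfkfb3 and Pdk1 (adjusted p = 0.0622 to 0.152).

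Slc2a6, outside the module, was lower in IL12 than in Mock and higher in the mixture than in DRIL18, and the IL12 effect with DRIL18 less that without was 3.605 ± 0.23 on the log2 scale (adjusted p = 5.04e-14).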

How the results depend on the processing

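Under the 18 alternatives, the calls that held in all of them were 31 of 33 members in the mixture against Mock, 30 of 32 in IL12 against Mock, 20 of 28 in DRIL18 against Mock, 22 of 27 in the mixture against IL12, 32 of 34 in the mixture against DRIL18, 31 of 35 in IL12 against DRIL18, 6 of 12 in Mock against NoEp and 15 of 21 in the interaction. Leaving out 1 library at a time, all genes called ranged from 2525 to 4125 in DRIL18 against Mock (3832 with all, 2525 without Mock replicate 2), from 242 to 1399 in Mock against NoEp (1102 with all), and members called in Mock against NoEp from 7 to 17. With the bis mark as a covariate 171 genes were called in Mock against NoEp. All NoEp and mixture libraries and no Mock libraries carry the mark, so its effect was estimated from IL12 and DRIL18 only. Leaving out 1 library at a time turned some directions. Ndrg1 in IL12 against Mock ranged from -0.011 without IL12 replicate 2 to 0.70 without IL12 replicate 1. The members' median log2 fold change in the mixture against IL12 ranged from -0.058 without IL12 replicate 1 to 0.21 without IL12 replicate 2. Slc2a3 in the mixture against IL12 ranged from -0.31 without IL12 replicate 1 to 0.17 without IL12 replicate 2. Without IL12 replicate 2, Pdk1 in IL12 against Mock was -0.12 and Pgam1 in the mixture against IL12 was 0.11. The cause was not tested. Total counts without TMM moved the median of all genes to -0.11 in IL12 against DRIL18 (-0.015 with TMM). The calls moved to 1943 higher and 4784 lower there (2986 and 3248 with TMM), and to 3845 and 5222 in the mixture against DRIL18 (4466 and 4576). In IL12 against Mock they moved to 2641 and 4873 (3635 and 3721), and Kdm3a and Ndrg1 lost their calls. With the replicate number as a block, 33 members were called in the mixture against Mock, 32 in IL12, 29 in DRIL18 and 14 in Mock against NoEp; the numbers did not pair the samples, with correlations of the deviations of same-numbered libraries between -0.0318 and 0.0493. With 2 libraries a group, small differences such as those of DRIL18 rest on few residual degrees of freedom. A difference that did not pass is not shown to be absent. The alternatives for genes outside the module and for counts of the neighbouring lists were chosen after seeing the data.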
